A study of Mus musculus with 29 samples.

Results

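Type I interferon-stimulated genes were followed in microglia sorted from mouse brain after a first or a repeated dose of lipopolysaccharide (LPS), with or without depletion and regrowth of the microglia in between. The 40 genes were taken by symbol from a list of classical members of the response, and all 40 were among the 36982 genes of the count table. A filter on low counts kept 39 of them for testing among 16632 genes, and Oas3 was removed by it.

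Type I interferons act through the receptor of Ifnar1 and Ifnar2, whose kinases activate Stat2. With Irf9 it is part of a complex that binds the interferon-stimulated response element (ISRE) in the promoters of antiviral genes. The products of these genes detect foreign nucleic acid, degrade it, block its translation or restrain the signal itself. In macrophages and microglia, LPS reaches the same genes through Toll-like receptor 4, its adaptor Ticam1 and induced interferon beta.

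All mice were C57BL/6J males of 15 weeks, without a transgene. Each had received an intraperitoneal injection at 10 weeks and another 5 weeks later, and brains were taken 3 h after the second. An injection was either saline (P) or LPS of Escherichia coli at 1 mg/kg (L). A week after the first injection, mice of the groups with a B in their name were gavaged for 5 days with BLZ945 at 169 mg/kg per day, which blocks the receptor that microglia need to survive. The other mice were gavaged with the cyclodextrin vehicle. In the order first injection, depletion, second injection, the groups were PP (saline and saline, vehicle, n = 5), PBP (saline and saline, BLZ945, n = 5), PL (saline then LPS, vehicle, n = 4), PBL (saline then LPS, BLZ945, n = 5), LL (LPS and LPS, vehicle, n = 5) and LBL (LPS and LPS, BLZ945, n = 5). Peripheral LPS is a model of systemic inflammation, and BLZ945 acts on every cell that depends on its target, not on microglia alone. Cells were sorted as CD11b high, CD45 intermediate and Ly6C negative, a gate that leaves out monocytes with Ly6C.

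Total counts lay between 5670450 and 12671476 per library. All 10 microglia markers on a list were detected in each group, with a summed level between 33980 and 73360 CPM (counts scaled to a common library size). PP, PL and PBP replicates 1 to 4 had been sorted on a MoFlo Astrios, and PBL, LL, LBL and PBP replicate 5 on a MoFlo XDP. PBP replicate 5 stood apart, with 146.8 CPM of summed neuron markers against 21.8 CPM in the lowest PBP library, and PL replicate 3 had the lowest RNA quality number of all (6.5). The sum of 9 neutrophil markers was 127 to 485 CPM in PBL and at most 35.4 CPM in any other library. The sum of 8 monocyte markers was 22.9 to 74.7 CPM in PBL and at most 29.1 CPM elsewhere, and Ly6c2 was at 0 in PBP, PL and LBL. The 8 border-associated macrophage markers summed to 12.2 to 47.3 CPM in the 3 BLZ945 groups and 56.9 to 160 CPM in the others.

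Promoters of 31 members were found in a RefSeq table of build GRCm38.p6 that gives 250 bases before and 50 after each start site; the counts are on another build, so no coordinate was carried over. The ISRE was searched on both strands as GAAA, 2 bases of any kind and GAAA again. It occurred in 15 of the 31 members (48.4%) and in 3.44% of all 32851 promoters, or 3.89% of the 17336 genes of the count table that have a promoter, counted like the members over all their start sites. The gamma-activated site TTCNNNGAA was found in 9 members (29%, against 8.3% of promoters and 8.88% of genes) and overlapped an ISRE in 2 of them, Bst2 and Ifitm3. The kappa B site, searched as GGGA, 2 bases of any kind and TTCC, was found in 3, Ifit2, Ifitm3 and Isg20 (9.68%, against 1.47% of promoters and 1.65% of genes). The 3 ISRE holders with the smallest p after a first LPS are shown first, with ISRE matches in capitals, and then the member with the largest p among those with a promoter in the table. Sequences run 5′ to 3′ on the gene's own strand, Ifit1 at chr19:34640639-34640938 (plus), Trim30a at chr7:104465144-104465443 (minus, the first of its 2 start sites), Isg15 at chr4:156200769-156201068 (minus) and Xaf1 at chr11:72301379-72301678 (plus).
Ifit1: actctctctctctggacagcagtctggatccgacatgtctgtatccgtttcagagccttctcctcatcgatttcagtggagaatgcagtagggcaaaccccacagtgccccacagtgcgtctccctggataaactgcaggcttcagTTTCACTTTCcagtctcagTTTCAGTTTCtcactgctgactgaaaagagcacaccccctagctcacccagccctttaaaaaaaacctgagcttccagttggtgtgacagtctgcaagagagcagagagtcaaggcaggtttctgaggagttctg
Trim30a: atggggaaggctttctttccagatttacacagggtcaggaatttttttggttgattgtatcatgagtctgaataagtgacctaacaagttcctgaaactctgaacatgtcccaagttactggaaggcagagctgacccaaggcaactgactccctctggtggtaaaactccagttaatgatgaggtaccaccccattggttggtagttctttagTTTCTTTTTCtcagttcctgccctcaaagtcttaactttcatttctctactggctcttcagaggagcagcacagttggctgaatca
Isg15: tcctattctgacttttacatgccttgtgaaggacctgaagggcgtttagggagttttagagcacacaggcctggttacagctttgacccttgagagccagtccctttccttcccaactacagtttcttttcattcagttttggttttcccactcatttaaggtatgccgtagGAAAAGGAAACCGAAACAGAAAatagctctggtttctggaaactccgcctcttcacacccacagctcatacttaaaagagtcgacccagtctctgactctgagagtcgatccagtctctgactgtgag
Xaf1: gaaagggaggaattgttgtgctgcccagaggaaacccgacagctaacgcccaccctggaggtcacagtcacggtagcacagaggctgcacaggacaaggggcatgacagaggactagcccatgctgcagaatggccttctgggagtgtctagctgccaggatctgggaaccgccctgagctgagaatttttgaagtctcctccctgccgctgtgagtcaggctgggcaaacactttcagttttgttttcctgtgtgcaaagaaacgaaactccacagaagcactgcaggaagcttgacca

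Ifit1 held 2 matches, centred 99.5 and 80.5 bases before the start site. In Isg15 there were 3 overlapping matches, centred 73.5, 67.5 and 61.5 bases before it, and in Trim30a a single match centred 31.5 bases before it. Xaf1, whose product promotes apoptosis, held no match of any of the 3 motifs in this window.

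**Figure D1:**
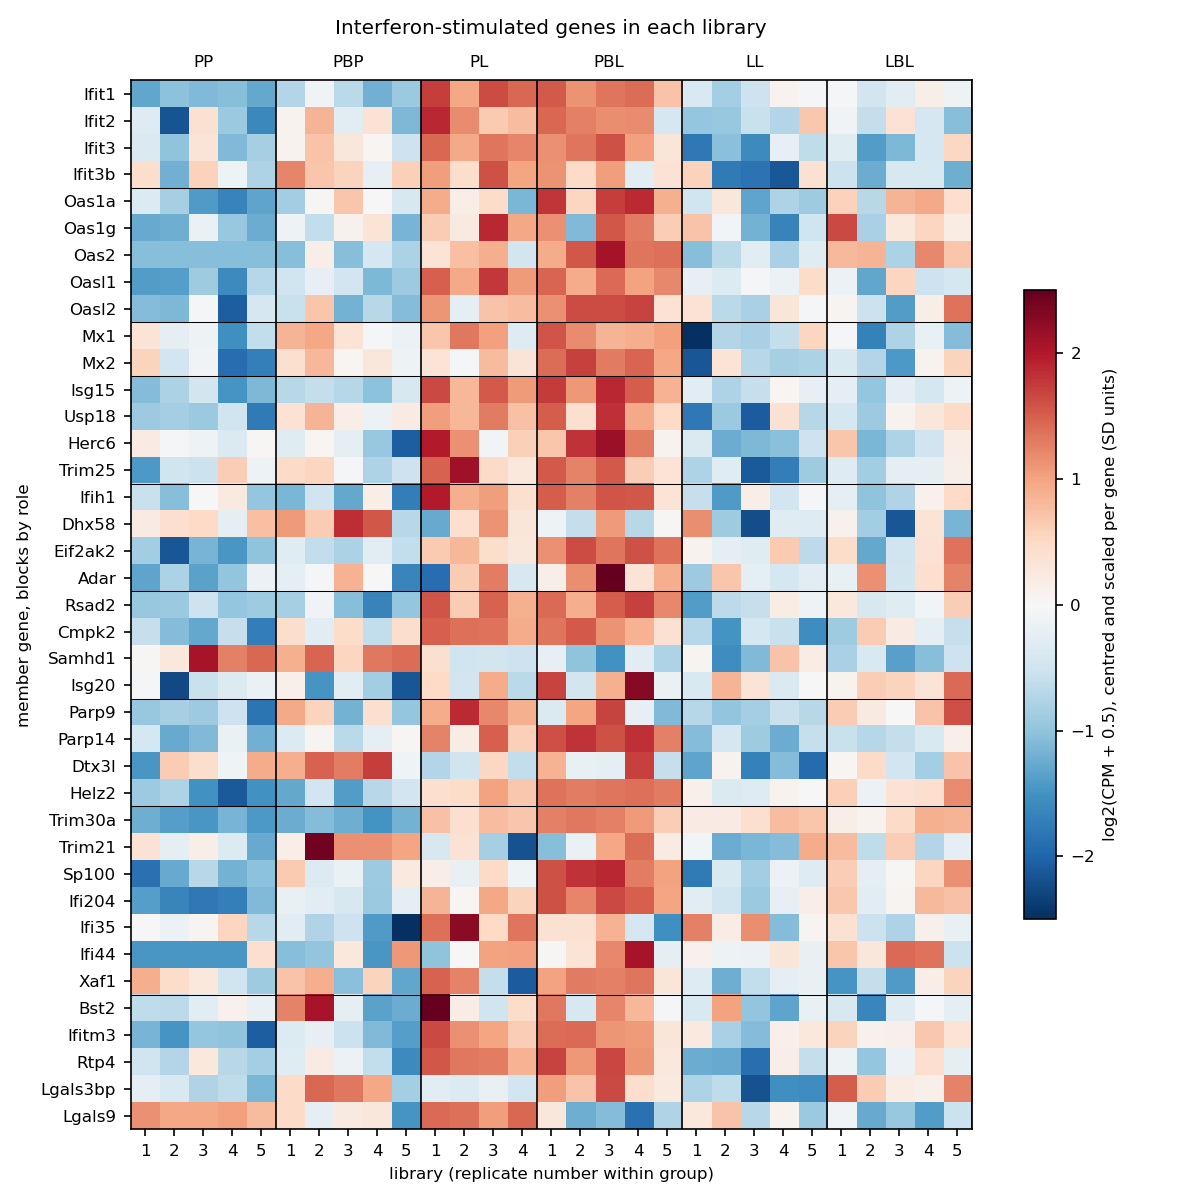
Level of each of the 39 tested members in each of the 29 libraries, as log2(CPM + 0.5) centred on the gene's mean and divided by its SD over all libraries; columns are libraries grouped as PP, PBP, PL, PBL, LL and LBL, and genes are blocked by role. Red is above and blue below the gene's own mean. Most genes are red in PL and PBL, whereas Samhd1 is mostly red in PP and PBP.

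A first dose of LPS raised most of the set in microglia that had never been depleted (PL against PP). Of the 39 tested members, 24 rose, where 14.2% of all 16632 genes were called higher. Only Samhd1 fell, where 11.9% of all genes were called lower, and 14 passed in neither direction. A call is an adjusted p under 0.05 in edgeR's quasi-likelihood test with Benjamini-Hochberg adjustment over all genes. The median log2 fold change of the members was 1.02, and that of all genes -0.00. Cell type markers moved too. Microglia markers summed to 61410 to 73360 CPM in PP and 47280 to 54770 CPM in PL, with 7 of 10 called lower, and astrocyte markers to 447 to 595 and 757 to 1025 CPM, with 1 of 9 called in each direction. Lymphocyte markers summed to 766 to 946 and 313 to 351 CPM, Cd3e and Cd2 being at 0 in both groups. In bulk libraries fewer cells of a type and less RNA per cell cannot be told apart, and the part of these in the result was not tested.

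Among the IFIT proteins, which bind foreign RNA and stop its translation, Ifit1 (ENSMUSG00000034459, chromosome 19) was at 3.47, 4.72, 4.30, 4.56 and 3.53 CPM in the 5 PP libraries. In PL it was at 84.1, 38.9, 75.8 and 62.3 CPM. The groups were far apart, with the lowest PL library several times the highest PP library. The log2 fold change was 3.99 (SE 0.305, edgeR adjusted p = 1.14e-12). Ifit3, with 14.2 to 26.2 CPM in PP and 35.1 to 44.1 CPM in PL, rose by 1.19 (SE 0.228), and Ifit2 by 1.69 (SE 0.403). Ifit3b, a near-identical copy of Ifit3 whose reads may be split with it, was at 1.12 (SE 0.457, adjusted p = 0.0686) and was not called.

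All 5 tested members of the OAS family rose. Most of these enzymes make the oligoadenylates that activate RNase L, whereas Oasl1 is known in mice as a brake on the translation of Irf7. Oasl1 (ENSMUSG00000041827, chromosome 5) was at 0.124, 0.135, 0.633, 0 and 0.882 CPM in PP and at 18.2, 9.27, 25.6 and 10.9 CPM in PL, with no overlap. Its log2 fold change was 5.44 (SE 0.633, adjusted p = 1.81e-08). Oas2 had 0 counts in all 5 PP libraries, which limits it to 0.0756 CPM at 3 counts over the group. It had 54 counts in PL, at 1.49, 2.5, 2.96 and 0.397 CPM, and its mean there was 24.3-fold that limit. Such a ratio to the limit leaves out the spread of the higher group. Oasl2 rose by 1.03 (SE 0.303), Oas1g by 2.67 (SE 0.782) and Oas1a by 0.76 (SE 0.258). Oas1a and Oas1g are near-identical neighbours, so their split of reads is uncertain. Oas3 was counted in PP replicate 1 alone of the PP libraries (0.62 CPM) and in 3 of the 4 PL libraries, at most 1.32 CPM.

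Neither of the MX GTPases, which trap viral components, was called. Mx1 was at 0.60 to 3.72 CPM in PP and 2.12 to 8.02 CPM in PL (log2 fold change 1.31, SE 0.541, adjusted p = 0.0722), and the groups overlapped. For Mx2 the difference was 0.78 (SE 0.403, adjusted p = 0.158).

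Of the ISG15 system 3 of 4 genes rose. Isg15 encodes a ubiquitin-like protein that is attached to other proteins. It was at 6.07, 7.42, 9.24, 4.68 and 5.92 CPM in PP and at 36.7, 21.6, 34.2 and 25.1 CPM in PL, every PL library being above every PP library. Isg15 rose by 2.14 on the log2 scale (SE 0.224, adjusted p = 1.84e-09). Usp18, which removes ISG15 and also damps the interferon receptor, rose by 1.15 (SE 0.218), and the ubiquitin ligase gene Trim25 by 0.59 (SE 0.175). Herc6, the ligase that attaches ISG15 in mice, did not pass (0.32, SE 0.153, adjusted p = 0.127).

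Sensors of double-stranded RNA were mixed. Eif2ak2, the kinase PKR that halts translation, was at 21.7 to 33.6 CPM in PP and 49.6 to 59.7 CPM in PL and rose by 0.90 (SE 0.166). Ifih1, the sensor MDA5, rose by 0.82 (SE 0.198). Dhx58 (-0.04, SE 0.252) and the RNA editing enzyme gene Adar (0.33, SE 0.192) were not called.

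Rsad2, which encodes viperin, a maker of a chain-terminating nucleotide, was at 3.84, 3.91, 5.95, 3.72 and 4.03 CPM in PP. In PL it was at 45.7, 18.5, 41.4 and 23.8 CPM, so the groups did not overlap, and the log2 fold change was 2.92 (SE 0.384, adjusted p = 3.29e-07). Cmpk2, its neighbour on chromosome 12 and a nucleotide kinase, rose by 2.19 (SE 0.339). Samhd1, which destroys the building blocks of DNA, went the other way. It was at 51.5, 54.5, 83.0, 68.6 and 71.7 CPM in PP and at 56.3, 45.5, 45.9 and 45.3 CPM in PL, and 1 PL library lay within the PP range. Samhd1 fell by 0.45 (SE 0.145, adjusted p = 0.0197), a call lost without PP replicate 3 or without PL replicate 2 (largest adjusted p over all alternatives 0.0805). The exonuclease gene Isg20 did not pass (0.46, SE 0.345).

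Of Parp9, its partner Dtx3l, Parp14 and Helz2, 3 rose. Helz2, a helicase that works as a transcriptional coactivator, was at 1.61, 2.02, 0.506, 0 and 0.504 CPM in PP and at 10.2, 10.7, 21.4 and 14 CPM in PL. The groups did not overlap, and the log2 fold change was 3.93 (SE 0.496, adjusted p = 1.38e-07). Parp14, an ADP-ribosyltransferase, was at 24.3 to 39.0 CPM in PP and 45.6 to 80.5 CPM in PL and rose by 1.09 (SE 0.160). Parp9 rose by 0.63 (SE 0.143), but Dtx3l, the ubiquitin ligase it pairs with, was at -0.14 (SE 0.162) and was not called.

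Among the other intracellular proteins, Trim30a, described in mice as a restraint on Toll-like receptor signalling, was at 103, 95.5, 91.9, 105 and 92.5 CPM in PP. In PL it was at 261, 224, 266 and 257 CPM, with little spread inside either group (log2 fold change 1.37, SE 0.116, adjusted p = 1.27e-11). Ifi204, a mouse sensor of DNA, rose by 2.21 (SE 0.232) and the nuclear body gene Sp100 by 0.79 (SE 0.195). Ifi35 rose by 0.34 (SE 0.124, adjusted p = 0.0403), a call lost in 10 of 17 alternatives (largest adjusted p 0.153), among them leaving out any PP library but replicate 4 or any PL library but replicate 3. Trim21, Ifi44 and Xaf1 did not pass, and Ifi44 was at 0 in 4 of the 5 PP libraries.

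At the membrane, Ifitm3, which blocks fusion of viruses in endosomes, was at 10.6 to 17.7 CPM in PP and 37.2 to 59.5 CPM in PL and rose by 1.63 (SE 0.197). Rtp4, a chaperone of receptors on their way to the surface, rose by 1.02 (SE 0.202). Bst2 (0.14, SE 0.102), which encodes the virion tether tetherin, and the galectin-related genes Lgals3bp (0.09, SE 0.122) and Lgals9 (0.11, SE 0.121) were not called. For each of these 3 the 95% interval of the log2 fold change lay below 0.36.

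The 24 members called higher included 10 of the 14 tested ISRE holders, whose median log2 fold change was 1.15. Of the 16 tested members with a promoter but no ISRE match, 8 were higher and 1 lower, with a median of 0.52, and 6 of the 9 that lack a promoter entry were higher. The difference between holders and others was not tested. Of the 25 calls in this comparison, 19 held under every alternative tried, and 5 (Oas1a, Oas1g, Trim25, Samhd1 and Ifi35) were lost on leaving out a library, with adjusted p up to 0.146. Oas1a was lost without PP replicate 3, 4 or 5 or PL replicate 1 or 3, Oas1g without PL replicate 3 and Trim25 without PL replicate 2. With libraries of sorting day 5 alone, 20 members were called higher. That fit called 3883 genes of all in either direction, where the main fit called 4350.

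**Figure D2:**
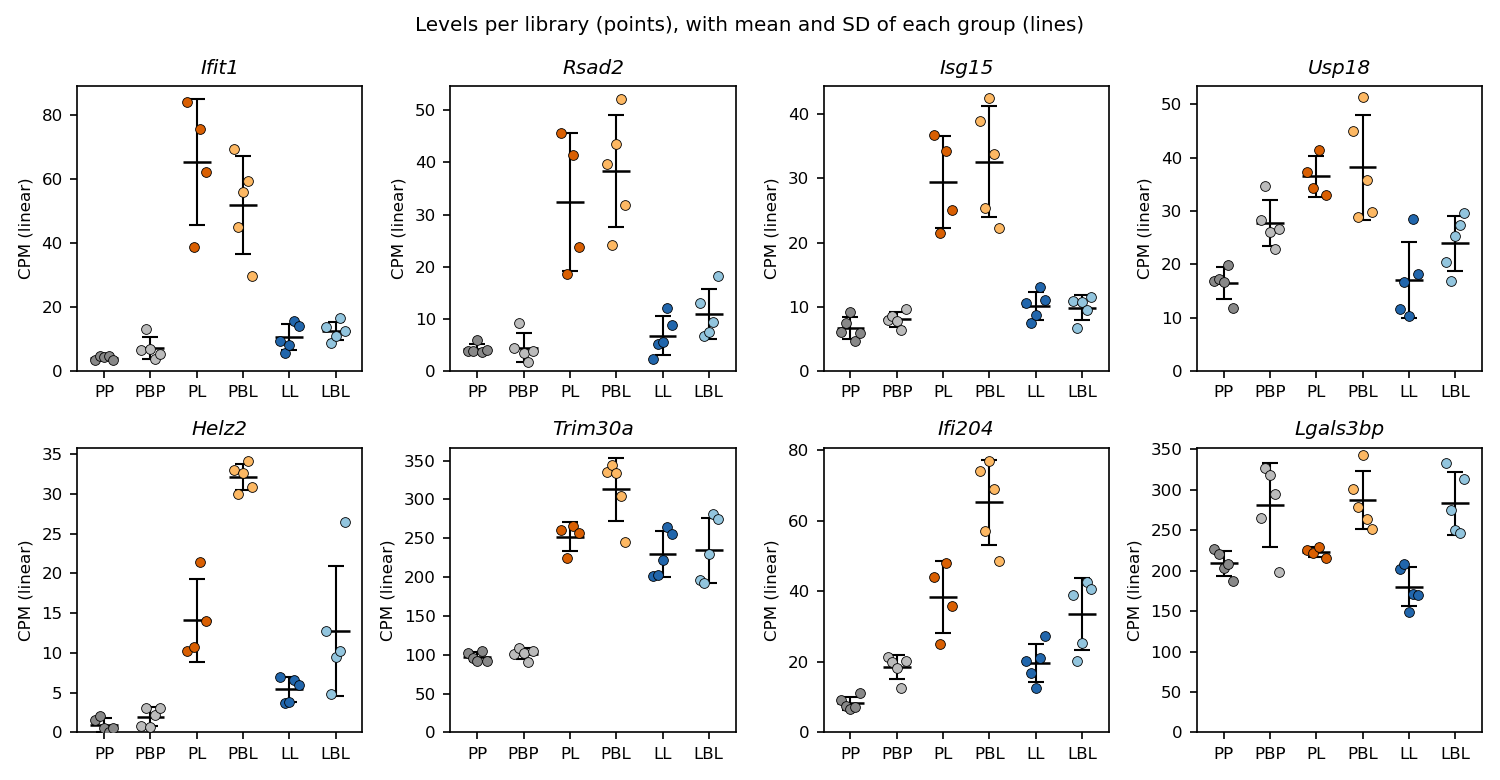
CPM of 8 members on a linear axis from 0, with each library as a point and the mean and SD of each group as lines. Ifit1, Rsad2 and Isg15 peak in PL and PBL and are lower in LL and LBL, Trim30a is at 192 CPM or more in every library whose second injection was LPS, and Lgals3bp is at 246 CPM or more in all PBL and LBL libraries.

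The same first dose was then read in microglia that had regrown after BLZ945 (PBL against PBP). These groups share no library with PL and PP. Of the 39 members 22 rose, where 21.5% of all genes were called higher. Samhd1 was again the only member that fell, where 21.5% of all genes were called lower. The median log2 fold change was 0.87, against 0.00 for all genes. Ifit1 was at 6.59, 13, 6.99, 3.84 and 5.28 CPM in PBP and at 69.3, 44.9, 56.1, 59.4 and 29.6 CPM in PBL, without overlap. The log2 fold change was 2.87 (SE 0.280, adjusted p = 2.88e-10). Helz2 was at 0.865, 3.09, 0.672, 2.24 and 3.11 CPM in PBP and between 30.0 and 34.1 CPM in PBL, and rose by 4.02 (SE 0.445). Rsad2 rose by 3.12 (SE 0.374), Isg15 by 2.02 (SE 0.214), Trim30a by 1.62 (SE 0.112) and Ifi204 by 1.82 (SE 0.213). Samhd1 fell by 0.63 (SE 0.138, adjusted p = 3.83e-04), and every PBL library was below every PBP library. On leaving out a library the calls of Ifit3 (without PBL replicate 3), Cmpk2 (PBP 2 or 4 or PBL 2), Trim25 (PBP 3, 4 or 5 or PBL 1, 2 or 3) and Mx2 (any but PBP 2 or PBL 5) were lost, with adjusted p up to 0.0941.

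The 2 responses had 19 called members in common, 79.2% of the 24 in undepleted and 86.4% of the 22 in regrown microglia. The same overlap was not computed over all genes, so it is not shown to be particular to the members. Ifit2, Oas1g, Usp18, Parp9 and Ifi35 were called in PL alone, and Mx2, Herc6 and Isg20 in PBL alone. The difference between the responses was itself tested, as PBL minus PBP less PL minus PP. By edgeR no member passed and no gene of all 16632 (0%), the smallest adjusted p of a member being 0.243. DESeq2 and limma voom called 0 members as well, though DESeq2 called 63 genes of all. Without PBP replicate 5, edgeR called 740 genes of all and still 0 members. At an unadjusted p under 0.05, with no count over all genes given, there were 6 members. Cmpk2 had the smallest p of them, with a difference of -1.32 (SE 0.457, 95% interval -2.26 to -0.37), and that of Ifit1 was -1.12 (SE 0.402, 95% interval -1.95 to -0.29, adjusted p = 0.252). For Isg15 the interval was -0.75 to 0.51 and for Trim30a -0.08 to 0.58, so differences within these intervals were not excluded.

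Sorter and LPS were entangled in this comparison, since PBL came from the XDP and 4 of the 5 PBP libraries from the Astrios. With the sorter as a covariate 18 members were called higher. That fit called 2224 genes of all in either direction, where the main fit called 7163. Of the 23 main calls of members it kept 16 and lost 7 (Ifit3, Oas1a, Oas2, Mx2, Trim25, Cmpk2 and Sp100). Without PBP replicate 5, 21 members were called higher, where 8276 of all genes were called in either direction. With XDP libraries alone there were 17, but the control is then PBP replicate 5 by itself, which stood apart and is assumed to vary like the other groups. PBL carried neutrophil markers at 127 to 485 CPM, all 9 of them detected, against at most 6.52 CPM in PBP, where Lcn2 and Mmp8 were at 0, and its RNA quality number was 7.4 to 7.9 against 7.4 to 9. Neuron markers summed to 99.1 to 194 CPM in PBL and 21.8 to 146.8 CPM in PBP. Both overlaps came from PBP replicate 5, the other 4 PBP libraries having an RNA quality number of 8.8 or 9 and at most 38.8 CPM of neuron markers. Of the tested markers, 8 of 9 for astrocytes and 3 of 5 for monocytes were called higher in PBL against PBP. Called lower were 9 of 10 for microglia and 1 of 5 for monocytes. The part of these in the result was not tested.

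**Figure D3:**
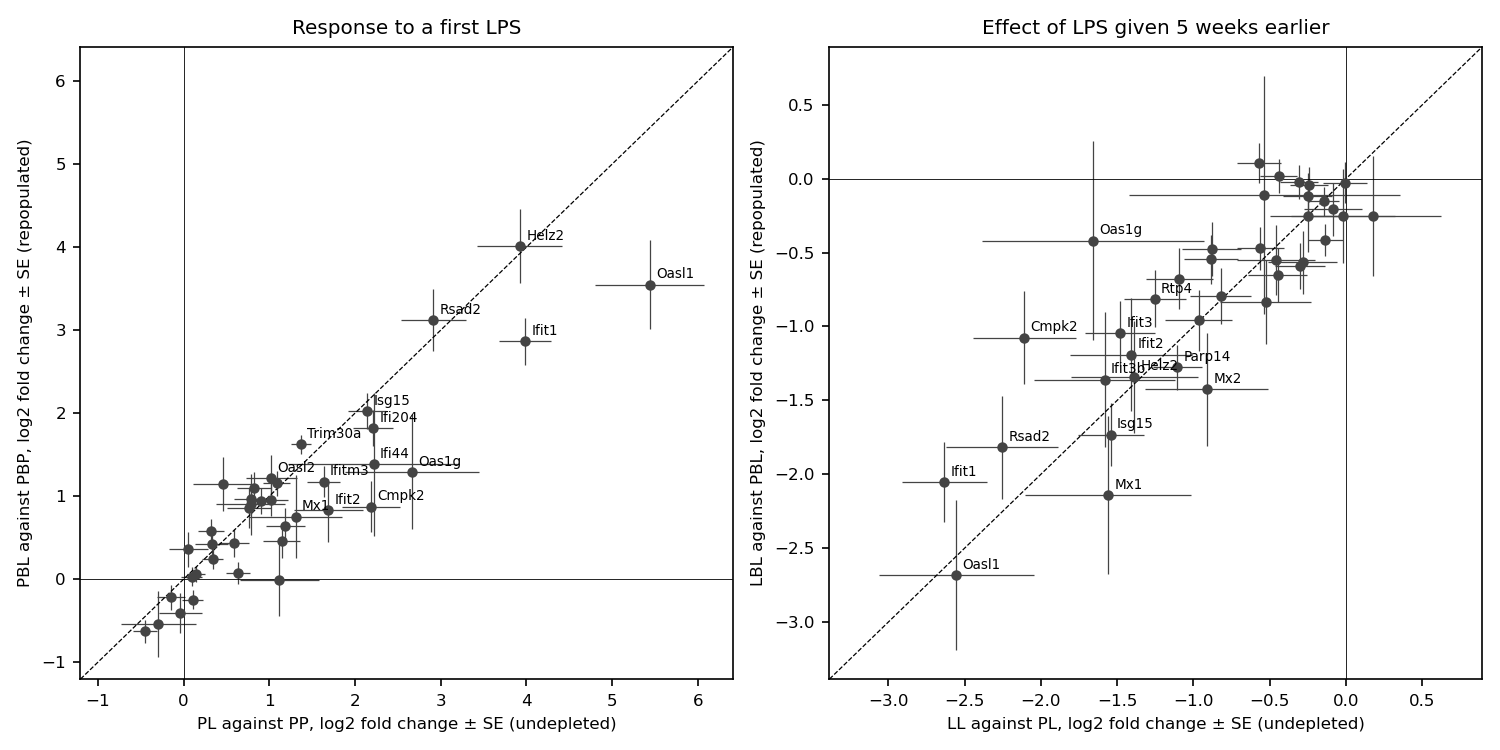
Log2 fold changes with SE bars of 38 tested members (Oas2, with 0 counts in PP, is not drawn), undepleted on the horizontal and regrown microglia on the vertical axis. The left panel plots the first LPS and the right panel the effect of LPS given 5 weeks earlier, and the dashed line marks equal values. Ifit1, at 3.99 and 2.87, and Oasl1, at 5.44 and 3.55, lie below the line on the left, although no difference passed the test.

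After a new dose of LPS many members were lower in mice that had also received it 5 weeks before. In undepleted mice (LL against PL) 16 fell, where 2.03% of all genes were called lower, and 0 rose, where 0.752% of all genes were called higher. The median log2 fold change was -0.82, against 0.01 for all genes. Of the 39 members 38 were negative, Trim21 (0.18) being the exception, whereas 8550 of all 16632 genes were positive. Ifit1 was at 9.49, 5.74, 8.19, 15.6 and 13.9 CPM in LL, where every library lay below all 4 PL libraries (38.9 to 84.1 CPM), and fell by 2.63 (SE 0.280, adjusted p = 1.00e-06). Isg15 was at 10.5, 7.50, 8.64, 13 and 11.1 CPM in LL, also below all of PL, and fell by 1.54 (SE 0.218). Rsad2 fell by 2.26 (SE 0.369), Oasl1 by 2.55 (SE 0.508), Cmpk2 by 2.11 (SE 0.338) and Ifit3 by 1.48 (SE 0.230).

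All 4 genes of the ISG15 system fell, Usp18 by 1.09 (SE 0.218), Trim25 by 0.88 (SE 0.176) and Herc6 by 0.56 (SE 0.153) besides Isg15. Parp14 (-1.10, SE 0.160), Rtp4 (-1.25, SE 0.203), Ifitm3 (-0.88, SE 0.193), Ifih1 (-0.82, SE 0.198), Parp9 (-0.57, SE 0.143), Ifi204 (-0.97, SE 0.220) and Lgals9 (-0.44, SE 0.121) were the others. Trim30a stayed out of this group. It was at 202, 202, 222, 265 and 256 CPM in LL against 224 to 266 CPM in PL, with broad overlap (-0.14, SE 0.115, adjusted p = 0.608). Eif2ak2 (-0.30, SE 0.165), Helz2 (-1.39, SE 0.415, adjusted p = 0.0647), Mx1 (-1.56, SE 0.544, adjusted p = 0.125) and Mx2 (-0.91, SE 0.403) did not pass either, though all LL libraries of Helz2 lay below all of PL.

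All of LL came from the XDP and all of PL from the Astrios, so earlier LPS and sorter cannot be told apart in this comparison. Neuron markers, all 9 detected in both, summed to 21.9 to 44.6 CPM in PL and 45.8 to 191 CPM in LL, and their part in the result was not tested. In a fit with the sorter as a covariate, where only PBP holds both instruments, 0 members were called. That fit called 11 genes of all in either direction, where the main fit called 463, so the 0 is not particular to the members. Of the 16 members, 15 kept a negative sign, with a size of 2.1 for Ifit1 (adjusted p = 0.139), 1.88 for Isg15 (adjusted p = 0.0665), 0.43 for Rtp4 and 0.30 for Ifitm3, and Lgals9 turned to 0.09. Without PL replicate 1 there were 11 calls and without PL replicate 3 there were 13, where 276 and 328 of all genes were called in either direction. Calls lost were those of Ifih1 and Ifitm3 (without PL replicate 1), Ifi204 (PL 1 or 3), Parp9 (PL 2 or 3), Herc6 (PL 1, 2 or 4 or LL 2, 3 or 4) and Lgals9 (any PL library or LL 3, 4 or 5), with adjusted p up to 0.205.

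In regrown microglia both groups had been sorted on the XDP (LBL against PBL), but PBL on day 3 and LBL on days 1 and 2, so earlier LPS and sorting day cannot be told apart. There 19 members fell, where 4% of all genes were called lower, and 0 rose, where 2.74% were called higher. The median log2 fold change was -0.59, against 0.01 for all genes. Ifit1 was at 13.9, 8.75, 10.9, 16.5 and 12.4 CPM in LBL, below all PBL libraries (29.6 to 69.3 CPM), and fell by 2.05 (SE 0.268, adjusted p = 2.14e-06). Isg15 was at 10.9, 6.61, 10.7, 9.42 and 11.6 CPM in LBL, again below all of PBL, and fell by 1.73 (SE 0.212, adjusted p = 7.96e-07). Parp14 was at 33.0, 30.7, 32.3, 35.6 and 44.3 CPM in LBL against 72.5 to 92.8 CPM in PBL and fell by 1.28 (SE 0.152, adjusted p = 5.70e-07).

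Both MX genes fell here, Mx1 by 2.14 (SE 0.535) and Mx2 by 1.43 (SE 0.380). Oasl1 (-2.68, SE 0.510), Rsad2 (-1.82, SE 0.348), Helz2 (-1.34, SE 0.380) and Ifi204 (-0.96, SE 0.206) fell as well, and Trim30a fell by 0.41 (SE 0.109, adjusted p = 0.0155, up to 0.0704 without LBL replicate 1 or 2), with 192 to 281 CPM in LBL and 245 to 345 CPM in PBL. Within the XDP libraries alone 18 members were called lower, where 1304 of all genes were called in either direction. Without LBL replicate 2, which had the lowest mean level of the members in its group, 11 were, where 669 of all genes were called. The main fit called 1121 genes of all, and 10 of the 19 calls held under every alternative. Besides Trim30a, the calls of Mx2 and Eif2ak2 were lost without LBL replicate 2 or 3 and that of Sp100 without either or without PBL replicate 2 or 3. Those of Usp18, Herc6, Trim25, Cmpk2 and Helz2 were lost on leaving out any of 6 or more libraries, with adjusted p up to 0.144. Neutrophil markers, 127 to 485 CPM in PBL, summed to 0.80 to 4.73 CPM in LBL, where Camp and Mmp9 were at 0, and their part in the result was not tested.

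Called lower in both settings were 13 members, 81.2% of the 16 in undepleted and 68.4% of the 19 in regrown microglia. Over all genes this overlap was not computed either. Parp9, Ifitm3 and Lgals9 were called in LL alone, and Mx1, Mx2, Eif2ak2, Helz2, Trim30a and Sp100 in LBL alone. In the test of the difference, LBL minus PBL less LL minus PL, edgeR called no member, and 4 genes of all (0.0241%). DESeq2 and limma voom called 0 members, though DESeq2 called 31 genes of all. At an unadjusted p under 0.05, again with no count over all genes given, there were 3 members. Parp9 had the smallest adjusted p of a member (0.189), with a difference of 0.67 (SE 0.197, 95% interval 0.27 to 1.08). The interval was -0.21 to 1.37 for Ifit1, -0.81 to 0.43 for Isg15 and -0.60 to 0.05 for Trim30a.

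How much of the response a second dose still gave was read against saline, in groups that share PP with the first comparison (LL against PP). Of the members 9 were higher, where 18.9% of all genes were, and 3 lower (Samhd1, Dtx3l and Lgals9), where 13.2% were. The median log2 fold change was 0.08, against 0.02 for all genes. All 8 tested neuron markers were called higher (summed 11.3 to 30.4 CPM in PP and 45.8 to 191 CPM in LL), as were 6 of 9 for astrocytes and 4 of 5 for red blood cells, and 8 of 10 for microglia were lower; their part in the result was not tested. Ifit1 (1.35, SE 0.297), Oasl1 (2.88, SE 0.641), Helz2 (2.54, SE 0.495), Ifi204 (1.25, SE 0.224), Trim30a (1.23, SE 0.111), Ifitm3 (0.75, SE 0.189), Eif2ak2 (0.60, SE 0.158) and Isg15 (0.60, SE 0.218, adjusted p = 0.0326) were above saline. The call of Isg15 was lost in 9 of 16 alternatives (largest adjusted p 0.81, with the sorter as a covariate), among them leaving out PP replicate 1, 4 or 5 or LL replicate 1, 4 or 5. Oas2, also called, had 13 counts in LL, with 0 in LL replicate 1. Its mean in LL was 4.03-fold the limit of PP at 3 counts. Rsad2 (0.66, SE 0.378), Usp18 (0.05, SE 0.211), Cmpk2 (0.08, SE 0.340), Parp14 (-0.02, SE 0.154), Rtp4 (-0.23, SE 0.195) and Ifit3 (-0.29, SE 0.222) did not pass. The calls of Samhd1 (without LL replicate 2), Oas2 (LL 5), Lgals9 (LL 3 or 5) and Dtx3l (any but PP 1 or LL 2) were also lost, with adjusted p up to 0.127.

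In regrown microglia, LBL against PBP, 8 members were higher, where 14.6% of all genes were, and 4 lower (Ifit3b, Mx1, Dhx58 and Samhd1), where 13.6% were. The median log2 fold change was 0.18, against 0.00 for all genes. Of the tested markers, 4 of 8 for neurons and 4 of 9 for astrocytes were called higher. Called lower were 7 of 10 for microglia and 4 of 8 for border-associated macrophages. The part of these markers in the result was not tested. Trim30a (1.21, SE 0.111), Helz2 (2.68, SE 0.438), Ifi204 (0.86, SE 0.211), Ifitm3 (0.70, SE 0.186), Oas2 (2.73, SE 0.769), Rsad2 (1.30, SE 0.372), Ifit1 (0.81, SE 0.280) and Isg20 (0.89, SE 0.326) were the 8. Isg15, at 0.29 (SE 0.216), did not pass. Ifit3b was lost without PBP replicate 1 or LBL replicate 2 or 5, and the calls of Ifit1, Mx1, Dhx58 and Isg20 were each lost on leaving out any of 6 libraries, with adjusted p up to 0.128. Trim30a and Ifitm3 stayed above saline in both settings under every alternative. PP and PBP replicates 1 to 4 were sorted on the Astrios and LL and LBL on the XDP. With the sorter as a covariate 2 members were called higher in each of these comparisons. That fit called 1181 genes of all in LL against PP and 1609 in LBL against PBP, where the main fit called 5340 and 4684. Without PBP replicate 5, 6 members were called higher in LBL against PBP, where 6005 of all genes were called in either direction.

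The rise left after a second dose was described on linear CPM as the share of the first rise, for the members called in the first response and with no test, since PL enters both terms. Over the 24 members of PL it had a median of 15.2% and ran from -37.7% for Trim25 to 85.2% for Trim30a. Trim30a stood at 97.5 ± 6.03 CPM (SD) in PP, 252 ± 18.8 in PL and 229 ± 29.6 in LL. Eif2ak2 kept 59.6%, Oasl2 40.4%, Ifi204 37.8% and Helz2 34.2%. Isg15 kept 15.3%, Ifit1 10.6%, Rsad2 8.91% and Usp18 2.93%, and Parp14 (-1.36%), Ifit3 and Rtp4 (both -14.5%) ended at or below their saline level. Of these 24, 5 were both lower than PL and still higher than PP, 9 were lower than PL and not higher than PP, 4 were higher than PP and not lower than PL, and 6 were neither.

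For the 22 members of PBL the median share was 20.1%, from -43.7% for Ifit3 to 70.8% for Isg20. Trim30a kept 63%, Ifitm3 49.3%, Helz2 35.7%, Ifit1 12% and Isg15 7.37%. Here 5 were lower than PBL and still above PBP, 12 were lower and not above, 3 were above and not lower, and 2 were neither.

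**Figure D4:**
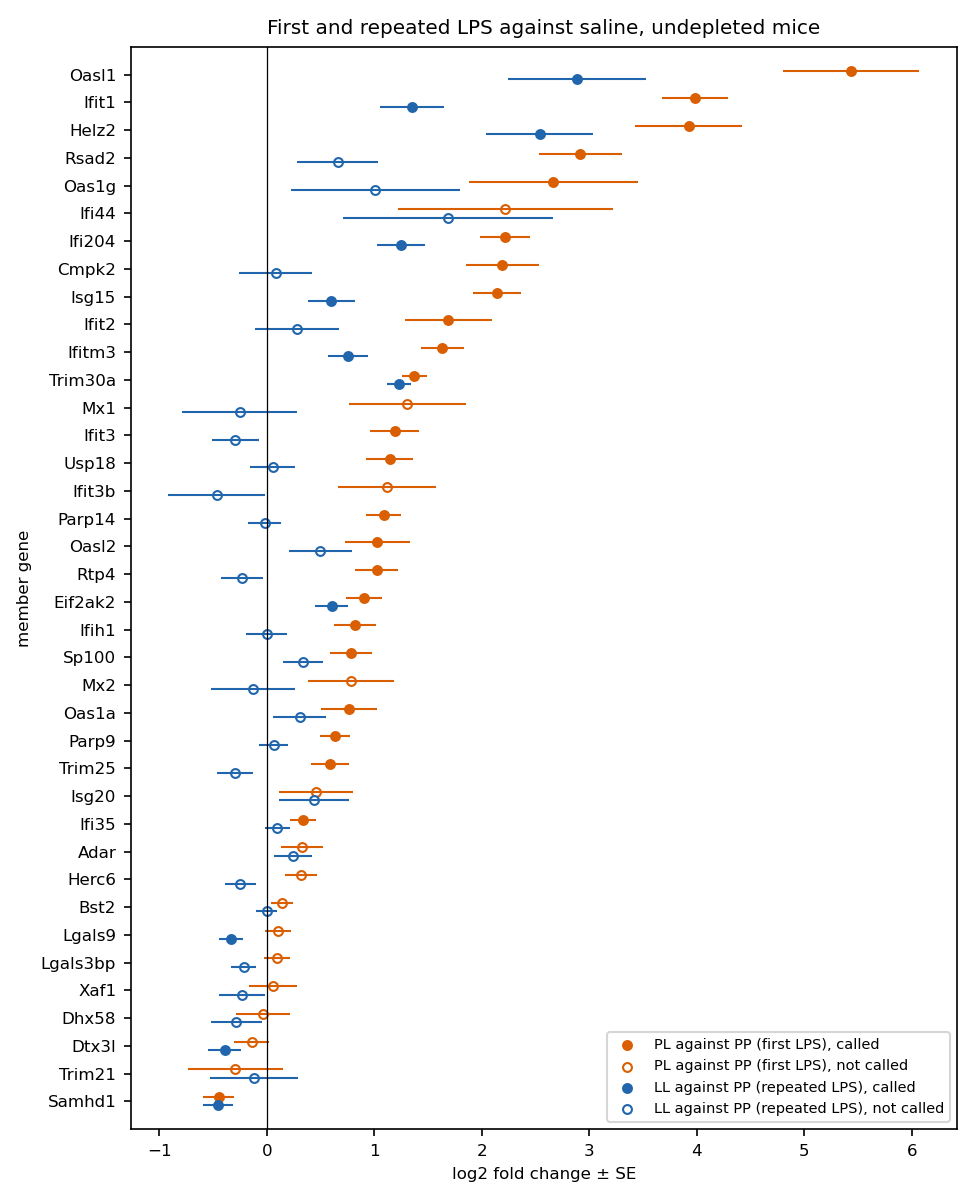
Log2 fold change with SE of 38 members after a first LPS (PL against PP, orange) and after a repeated LPS (LL against PP, blue) in undepleted mice; filled points were called and open points were not, and both share the PP libraries. Trim30a has nearly equal points (1.37 and 1.23), whereas Ifit1 goes from 3.99 to 1.35 and Cmpk2 from 2.19 to 0.08. Oas2, with 0 counts in PP, is not drawn.

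Depletion and regrowth alone, with saline on both occasions, gave few calls among the members (PBP against PP). PP was sorted on day 5 and PBP on days 3 and 4, so depletion and sorting day cannot be told apart. Ifi204 was the only member called, where 0.289% of all genes were called higher and 0.241% lower. It was at 9.05, 7.42, 6.71, 7.08 and 11.1 CPM in PP and at 21.3, 19.9, 18.1, 12.6 and 20.3 CPM in PBP, without overlap, and was higher by 1.15 on the log2 scale (SE 0.225, adjusted p = 0.00685). Limma voom did not call it, with 76 genes called of all. DESeq2 called 6 members, with 276 genes of all, where edgeR called 88. The median of the members was 0.38, against 0.04 for all genes. Of the 39 members 33 were positive, as were 9259 of all 16632 genes. An unadjusted p under 0.05 by edgeR was found for 18 of the 39 members and 1991 of all genes. A missing call does not show that a member was unchanged, and the members were not tested as a set. Usp18 (0.75, SE 0.208, adjusted p = 0.1), Sp100 (0.69, SE 0.185, adjusted p = 0.0780) and Lgals3bp (0.43, SE 0.115, adjusted p = 0.0815) came next. Lgals3bp was called without PBP replicate 5 (adjusted p = 0.0087) and Sp100 without PBP replicate 4 (adjusted p = 0.0333). Each of these edgeR fits gave 2 calls, as did the sorter covariate, where 66, 105 and 66 of all genes were called. Oas2 was at 0 in PP and had 15 counts in 3 of the PBP libraries, 9 of them in PBP replicate 2, and was not called. Its mean in PBP was 4.65-fold the limit of PP at 3 counts.

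After a first LPS (PBL against PL) 7 members were higher, where 11% of all genes were, and 1 lower, where 11.1% were. Sp100 (0.87, SE 0.194), Ifi204 (0.76, SE 0.219), Lgals3bp (0.37, SE 0.123), Helz2 (1.18, SE 0.406), Oas1a (0.70, SE 0.255), Parp14 (0.43, SE 0.159) and Trim30a (0.31, SE 0.116) were the 7, and Lgals9 was the lower one (-0.69, SE 0.121, adjusted p = 4.02e-04). All PBL came from the XDP and all PL from the Astrios, so the sorter and the depletion cannot be told apart. With the sorter as a covariate 0 members were called, and 3 genes of all, where the main fit called 3673. There were 2 calls without PL replicate 2, 3 without PL replicate 4, and 4 without PBL replicate 3 or without PBL replicate 4. These fits called 2351, 2531, 2848 and 2326 genes of all. Sp100 and Lgals9 kept their calls without any 1 library, and the other 6 did not, with adjusted p up to 0.204. Neutrophil markers summed to at most 21.5 CPM in PL, all 9 of them detected, against 127 to 485 CPM in PBL. Of the tested markers, 7 of 9 for astrocytes, 7 of 8 for neurons and 3 of 5 for red blood cells were called higher. Called lower were 1 of 9 for astrocytes, 6 of 10 for microglia and 7 of 8 for border-associated macrophages. The part of these in the result was not tested.

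After a repeated LPS (LBL against LL) all libraries were from the XDP, but depletion and sorting day nearly coincided. LL replicates 1 to 4 were sorted on day 2 and LL replicate 5 on day 1. LBL replicates 1 to 4 were sorted on day 1 and LBL replicate 5 on day 2. Here 1 member was higher, where 0.487% of all genes were, and 0 lower, where 0.722% were. With LL and LBL alone and sorting day as a covariate, 2 members were called, with 210 genes of all. Lgals3bp, a secreted glycoprotein that binds galectins, was at 202, 208, 149, 171 and 171 CPM in LL and at 334, 275, 250, 246 and 314 CPM in LBL. Every LBL library was above every LL library, and the log2 fold change was 0.65 (SE 0.116, adjusted p = 0.00169), a call that held in all alternatives. Oas2 (2.94, SE 0.784, adjusted p = 0.0537), Ifi204 (0.77, SE 0.210, adjusted p = 0.0558) and Sp100 (0.67, SE 0.183, adjusted p = 0.0570) lay just outside the threshold. There were 2 calls without LL replicate 5 and 3 without LBL replicate 2 or without LBL replicate 3. These fits called 159, 122 and 164 genes of all, where the main fit called 201.

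These 3 comparisons share no library. Of the 39 members 17 were positive in all 3 (43.6%), as were 27.7% of all genes tested, and 2 (5.13%) were negative in all 3, Ifi35 and Lgals9, as were 22.4% of all genes. Helz2 was at 1.09, 1.18 and 1.23 in PBP against PP, PBL against PL and LBL against LL, Sp100 at 0.69, 0.87 and 0.67, Ifi204 at 1.15, 0.76 and 0.77 and Oas1a at 0.60, 0.70 and 0.61. Lgals9, which encodes galectin-9, was at -0.34, -0.69 and -0.24. It ranged from 458.2 to 492.9 CPM in PP and 279 to 427 CPM in PBP, without overlap, although the difference was not called (adjusted p = 0.194). Border-associated macrophage markers went the same way in all 3, being 56.9 to 121 CPM in PP and 26.6 to 47.3 in PBP, 92 to 160 in PL and 18.3 to 36.6 in PBL, and 56.9 to 96.9 in LL and 12.2 to 24.7 in LBL, with all 8 markers detected in each group. Their part in these values was not tested.

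**Figure D5:**
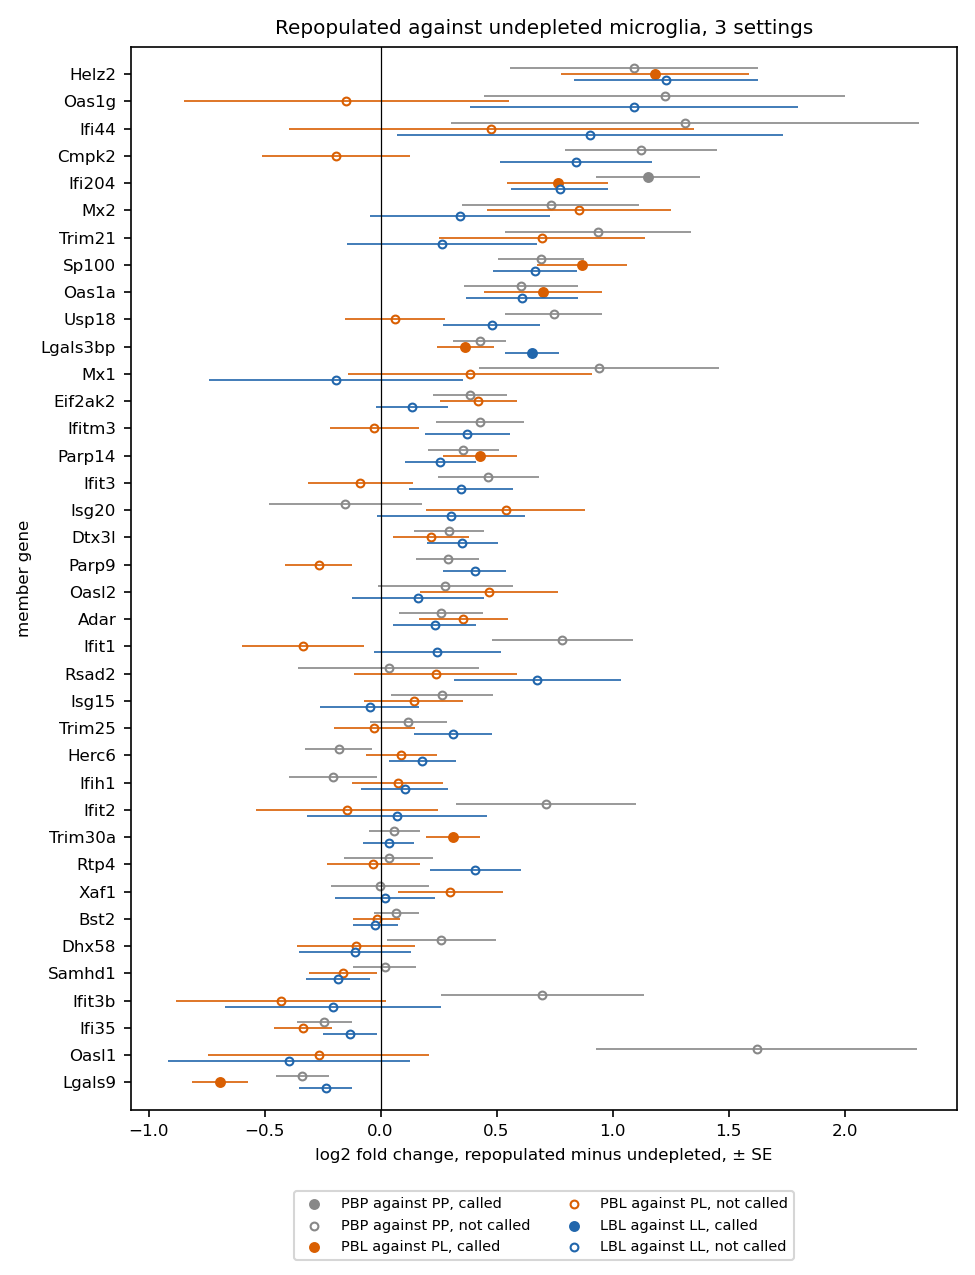
Log2 fold change with SE of regrown against undepleted microglia for 38 members (Oas2 is not drawn), ordered by the median of the 3 comparisons; filled points were called. Ifi204 is filled in PBP against PP and in PBL against PL, and Lgals3bp in PBL against PL and LBL against LL. Helz2 lies between 1.09 and 1.23 in all 3, and Lgals9 is at the bottom with -0.69 in PBL against PL.

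The genes upstream of the set were read from lists of the pathway. Of 21 interferon genes 8 were listed in the table and 0 passed the filter on low counts. Ifnb1, the interferon beta gene, had 0 counts in PP, PBP and LL, 10 counts in PL, 13 in PBL and 4 in LBL. The PBL counts were unevenly spread, from 0 to 1.37 CPM with a median of 0.155 CPM. In PL it was at 0.237 to 0.397 CPM. Over all genes, 14.2% were called higher and 11.9% lower in PL against PP, 21.5% in each direction in PBL against PBP, 2.03% lower in LL against PL and 4% lower in LBL against PBL, and the counts of the 3 pathway lists stand beside these shares. Of 10 tested genes for the receptors and their JAK-STAT cascade, 5 rose and 1 fell in PL against PP, 5 rose and 1 fell in PBL against PBP, 4 fell in LL against PL and 3 fell in LBL against PBL. Stat2 rose by 1.93 (SE 0.17) in PL, at 73.7 to 123 CPM against 20.0 to 32.5 CPM in PP, while Tyk2, a kinase of the receptor, fell by 0.67 (SE 0.17). In LL against PL, Irf9 fell by 0.56 (SE 0.13) and the receptor gene Ifnar1 by 0.36 (SE 0.09), and in LBL against PBL Stat2 fell by 0.53 and Ifnar1 by 0.51.

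Of 18 tested genes that act in the induction of interferon, 9 rose and 4 fell in PL against PP (14.2% and 11.9% of all genes) and 8 rose and 6 fell in PBL against PBP (21.5% and 21.5%). In LL against PL 3 fell (2.03%), and in LBL against PBL 1 rose and 4 fell (2.74% and 4%). Irf1 rose by 2.08 (SE 0.18) in PL and Irf7, which amplifies interferon production, by 1.14 (SE 0.32), and both fell in LL against PL, Irf1 by 1.58 (SE 0.17) and Irf7 by 1.46 (SE 0.33). Irf7 was at 3.21 to 7.61 CPM in LL and 7.49 to 15.4 CPM in LBL and was called higher in LBL against LL (1.24, SE 0.31, adjusted p = 0.0387). Irf8, a factor of the macrophage lineage, fell by 0.88 (SE 0.12) in PL and by 0.89 (SE 0.11) in PBL. Of 13 tested genes listed as restraints on interferon signalling, 7 rose and 1 fell in each of the first responses. After an earlier dose 4 fell in each setting, beside the same shares of all genes. The list holds Usp18, itself a member of the set, and Isg20l2, whose role as a restraint was not examined here. Socs3, a brake on cytokine receptors, rose by 6.5 (SE 0.22) in PL and fell by 0.64 (SE 0.18) in LL against PL, where it was still at 628 to 1030 CPM.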

How the data were processed

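Bulk RNA-seq libraries of sorted microglia, 29 in 6 groups, were analysed from the deposited count table, in which the authors deposited whole-number counts for each gene, with no normalization. Per the submitters' processing notes, which give no role or order, FastQC 0.11.9, cutadapt 2.10, TopHat, SAMtools 1.10, Picard 2.13.2, HTSeq 0.11.0 and build GRCm39 were used; annotation release and strand setting were not given in the sources used here, so antisense overlap and reads shared by near-identical copies make Ifit3, Ifit3b, Oas1a and Oas1g uncertain. The RNA quality number, a score of integrity, and other sample information such as sorting day come from the sample table the authors deposited. Counts were filtered with filterByExpr at its defaults (minimum count 10), scaled by TMM and fitted with edgeR 4.0.16 in R 4.3.3 (robust quasi-likelihood, 1 coefficient per group, 23 residual degrees of freedom), with two-sided p-values adjusted over 16632 genes. The SE is the size of the log2 fold change divided by the square root of its F statistic. CPM values use TMM-scaled library sizes. Total counts had a median of 7597841, and limits for 0 counts cover counting error only. The 56 pairs of libraries within groups differed by 5.47 to 32.45 in chi-square over its degrees of freedom, so no library was a duplicate. The labels give 1 sample per library and no more on the animals, and p-values reflect only how these samples vary, which may be technical. Same-numbered libraries of different groups did not deviate together (70 pairs, correlation -0.311 to 0.369, 8 over 0.1), so numbers do not pair samples. Alternatives were size factors by RLE, no filter, a replicate block, the sorter as a covariate, single sorters or days, limma 3.58.1 voom, DESeq2 1.42.0 and leaving out each library. The members and the gene lists were chosen with earlier results of these data known. Every member may be named; within each role those with the smallest p after a first LPS and the highest mean level, and those that go against their group, are given per library or by range. The edgeR procedure was tested on simulated counts with known changes. Values of some genes of the pathway lists are not reported here.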

Additional observations from a re-analysis of the deposited data

Results flagged for a closer look

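Of 246 sets of values (each member, and the mean of the members, in each group), 13 held a library whose distance to the nearest other exceeded the 95% limit of Dixon's test, and chance alone marks about 1 in 20 sets. Of the 13, 3 were in PP replicate 3, where Rsad2 was at 5.947 CPM (others at most 4.032), Rtp4 at 45.17 (others at most 33.08) and Oas1g at 0.633 (others at most 0.24). In LL replicate 5, Ifit2 was at 24.21 CPM (others at most 11.22) and Oasl1 at 5.039 (others at most 2.578). PL replicate 3, with the lowest RNA quality number, had Dtx3l at 42.38 CPM (others at most 34.05) and Lgals9 at 484.2 (others at least 518.9). Ifit2 was at 12.29 CPM in PBL replicate 5, below the others (at least 32.64). Samhd1 was at 56.25 CPM in PL replicate 1 (others at most 45.93), Oasl2 at 17.75 in PBP replicate 2 (others at most 9.838) and Bst2 at 100.2 in LBL replicate 2 (others at least 112.6). Oas3 at 0.62 CPM in PP replicate 1 and Ifi44 at 0.756 CPM in PP replicate 5 were each the only PP library with a count of that gene.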

How the results depend on the processing

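Leaving out each library in turn gave 22 to 25 members higher in PL against PP, 19 to 25 in PBL against PBP, 7 to 9 in LL against PP and 6 to 8 in LBL against PBP, and 11 to 18 lower in LL against PL and 11 to 21 in LBL against PBL. It gave 1 to 2 calls in PBP against PP, 2 to 10 in PBL against PL, 1 to 3 in LBL against LL and 0 in both tests of a difference. With the sorter as a covariate, calls of members were 0 in LL against PL, where 11 of all genes were called. In LL against PP and in LBL against PBP 2 members each were called higher, where 1181 and 1609 of all genes were called in either direction. Samhd1 also kept its call as lower in LBL against PBP. Counted in either direction, there were 2 calls of members in PBP against PP, where 66 of all genes were called. There were 0 in PBL against PL, where 3 of all genes were called, and 4 in LBL against LL, where 330 were. XDP libraries alone gave 3 calls in LBL against LL, where 196 of all genes were called, and leave 1 control library in LBL against PBP. Astrios libraries alone gave 3 calls in PBP against PP, where 65 of all genes were called. The genes called of all follow in brackets. Without the filter there were 3 calls in PBL against PL (2957) and 2 in LBL against LL (126). In LBL against LL there were 2 with RLE (218) and 2 with LL and LBL alone and sorting day as a covariate (210). Limma voom gave 0 in PBP against PP (76), and DESeq2 6 in PBP against PP (276) and 5 in LBL against LL (430). The main fit called 3673 genes of all in PBL against PL, 201 in LBL against LL and 88 in PBP against PP. Replicate numbers do not pair the samples. With the replicate block there were 5 calls in PBL against PL (3142 genes of all) and 2 in LBL against LL (292 genes of all). Counts of members elsewhere stayed within 1.5 times (24 members in PL against PP), and 6 of 29 libraries correlated best with their own number. Signs turned for Lgals9 in LL against PL (0.088) and LL against PP (0.20), Dtx3l in LL against PP (0.059) and Dhx58 in LBL against PBP (0.029) with the sorter covariate, and for Dhx58 with XDP libraries alone (0.014). Why these changed was not tested. RLE scaling moved the median of all genes by at most 0.05. Depth limits Oas3, Ifi44, Oas1g and the interferon genes.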
